A study of Mus musculus with 6 samples.

Results

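The cytokine genes described are Il12a, Il12b, Il23a and Ebi3, which encode chains of the interleukin 12 family, with Il10, Il6 and Il18, 7 mouse genes in all. Members were found by gene symbol in the annotation of the arrays, and 7 of 25697 probes carried one of these symbols. They covered 6 of the 7 genes, with a pair of probes for Il23a and 1 each for Il12a, Ebi3, Il10, Il6 and Il18. No probe carried the symbol Il12b, which was not analysed here. The genes were chosen with the difference between the groups on these same arrays already known, so the members' differences are given as a description and not as a test.

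The 6 Illumina bead arrays, read in a single colour, each held RNA of mouse B cells from spleen. Of these, 3 carry the label Control and came from normal cells, while 3 carry the label TRAF3KO and came from premalignant TRAF3-/- cells. The comparison asks what is altered in B cells that lack TRAF3. The mouse strain, sex and age, the way Traf3 was deleted, the cells in which it was deleted and the purification of the B cells were not given in the sources used here. It is also not given whether each array held a separate mouse. Each group held arrays of both inferred sexes (below), so its arrays did not all come from the same mouse. Arrays of the same sex may still share a mouse. P-values therefore reflect only how these samples spread, and part of that spread may be technical. Traf3 had no probe under its symbol and was not analysed here, so the deletion could not be checked on the arrays.

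Cytokines of the IL-12 family are pairs of chains. The helical chain p35, encoded by Il12a, joins p40, encoded by Il12b, to form IL-12, and joins EBI3 to form IL-35, while p40 with p19, encoded by Il23a, forms IL-23 and EBI3 with p28, encoded by Il27, forms IL-27. IL-12 and IL-23 promote inflammatory T cell responses, whereas IL-35 and IL-10 can be made by regulatory B cells and restrain immune responses. IL-6 drives B cell and plasma cell growth, and IL-18 is an IL-1 family cytokine that is cut to its active form by caspase 1. TRAF3 restrains CD40 and BAFF receptor signalling through the non-canonical NF-kB pathway, and in macrophages and dendritic cells several of these cytokine genes are NF-kB targets.

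Intensities are on a log2 scale on which 0 is the floor, an intensity of 1. The 40th percentile of the arrays, used here as the limit of dim probes, lay between 3.95 and 3.97. Probes above it on at least 3 of 6 arrays were kept, which left 15657 probes and 10304 named genes. Each array had 31.3% to 31.4% of its probes at the floor. Across kept probes, pairs of control arrays had a Pearson's r of 0.920 to 0.925, pairs of TRAF3KO arrays of 0.922 to 0.930 and mixed pairs of 0.910 to 0.918. Control replicate 2 stood apart on the second principal component (20.6% of the variance). Read from Xist and Eif2s3y, 2 of 3 control arrays and 1 of 3 TRAF3KO arrays were male, and control replicate 2 was the only control array read as female. All 8 B cell markers with a probe were kept, 0 of them were called by limma (1 had an unadjusted p under 0.05), and Cd79a lay at 15.99 in control and 15.98 in TRAF3KO.

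Of the cytokine genes, Il12a, Ebi3 and Il10 were higher in TRAF3KO and Il18 was lower, in each case with groups that did not overlap. The Il6 groups overlapped, and Il23a was not detected above the dim limit on any array. Under their array's 40th percentile lay both Il23a probes on all 6 arrays and the Il10 and Il6 probes on control replicate 1, while Il12a, Ebi3 and Il18 lay above it on all 6. Of the 7 member probes 5 were kept, and 4 of these 5 had an adjusted p under 0.05 in the limma fit over all kept probes, the threshold for a call used throughout. The background was 4.07% of 15657 kept probes called, of which 2.1% were higher and 1.97% lower. Groups did not overlap for the same 4 member probes and for 21.9% of all kept probes. These counts describe genes chosen on this contrast, and nothing is read from them. In bulk RNA, fewer cells of a type and less RNA per cell cannot be told apart.

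**Figure D1:**
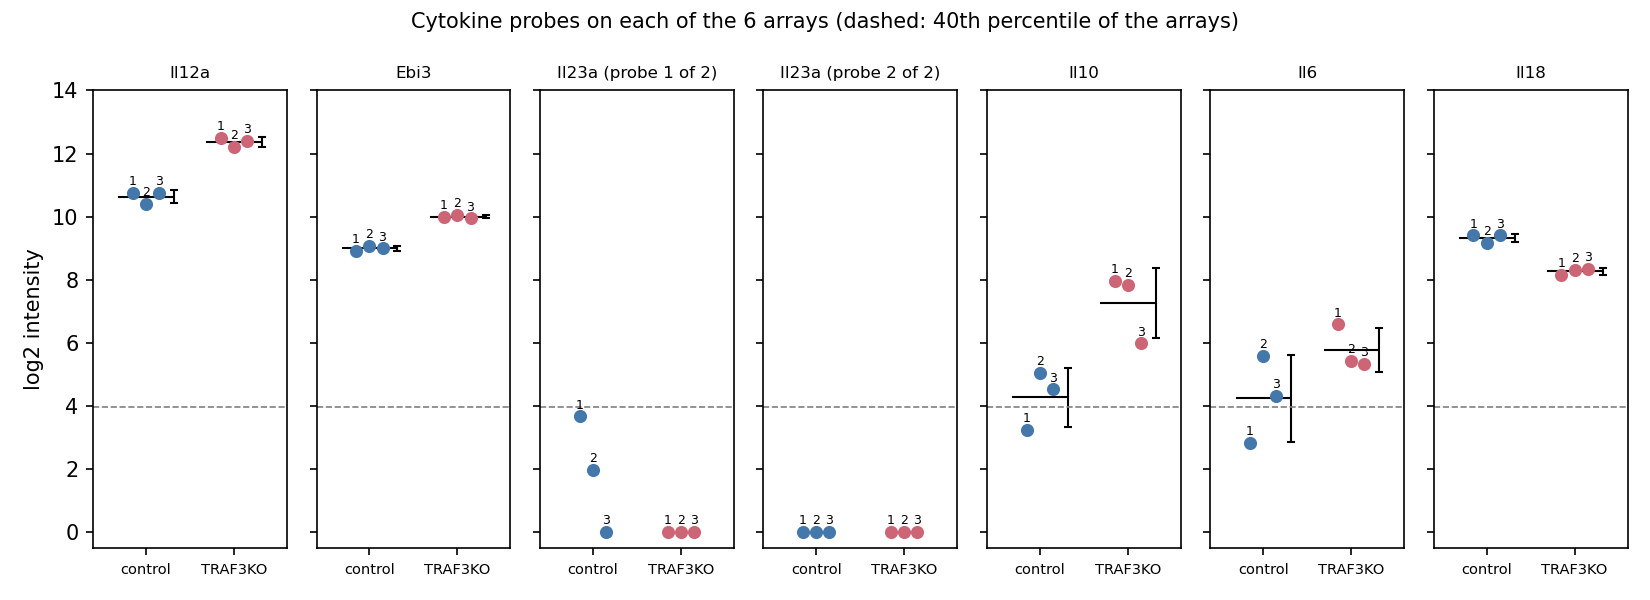
Log2 intensity (vertical axis) of the 7 cytokine probes on the 3 control arrays (blue) and 3 TRAF3KO arrays (red), with replicate numbers. Horizontal lines are group means, bars are the SD of 3 arrays (not drawn for Il23a), and the dashed line is the mean 40th percentile, 3.96. Il12a, Ebi3, Il10 and Il18 show groups that do not overlap, Il6 overlaps, and all Il23a points lie under the line.

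Il12a, the gene of the p35 chain shared by IL-12 and IL-35, lay at 10.76, 10.40 and 10.74 on the control arrays and at 12.50, 12.20 and 12.39 on the TRAF3KO arrays (log2 intensity, probe 2070468). Every TRAF3KO array was above every control array, and the gap between the groups, 1.45, was wider than the range within control, 0.36, or within TRAF3KO, 0.30. The means were 10.63 ± 0.20 and 12.37 ± 0.15 (SD, n = 3 each). The difference was 1.73 ± 0.11 on the log2 scale (SE; 95% interval 1.48 to 1.98), or 3.32-fold. The probe was among the brighter ones of its array, from percentile 83.4 to 85.7 in control and from 94.0 to 95.2 in TRAF3KO. Leaving out any 1 array gave differences from 1.62 to 1.81.

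Ebi3, the gene of the receptor-like chain shared by IL-27 and IL-35, lay at 8.914, 9.082 and 8.993 in control and at 10.003, 10.057 and 9.945 in TRAF3KO (probe 2070537). The 3 arrays of each group lay close together and the groups did not overlap. The means were 8.996 ± 0.084 and 10.002 ± 0.056 (SD, n = 3 each), and the difference was 1.01 ± 0.11 (SE; 95% interval 0.76 to 1.25), or 2.01-fold. Of the kept member probes Ebi3 had the narrowest spread in each group, with ranges of 0.17 and 0.11. The differences without any 1 array ran from 0.96 to 1.05. Il12a and Ebi3, the chains that pair as IL-35, were thus both higher on all 3 TRAF3KO arrays, at the level of RNA.

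The other IL-12 family chains gave little signal. The first Il23a probe (1400369) lay at 3.67, 1.96 and 0 in control and at 0 on all 3 TRAF3KO arrays, under the 40th percentile on all 6 arrays. The second (5820670) was at the floor on all 6. No fold is given for Il23a, since both groups lay under the dim limit. Il27, the p28 chain, was above that limit on 1 array, control replicate 2 (5.79), and at the floor on the other 5. The data therefore hold measured levels for the p35 and EBI3 chains, no level above the dim limit for p19, and none for p40, which has no probe here.

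The sequences before the starts of these genes are shown because Il12a and Ebi3 were higher together while Il18 was lower. They are the 250 bases before each start, from RefSeq on GRCm38.p6, which listed promoters for 5 of the 7 genes (Il12a, Il12b, Ebi3, Il6 and Il18). Capitals mark matches to a loose form of the NF-kB motif, GGG and CC with any 5 bases between them, searched on both strands.
Il12a, first start, chr3:68690394-68690643, plus strand: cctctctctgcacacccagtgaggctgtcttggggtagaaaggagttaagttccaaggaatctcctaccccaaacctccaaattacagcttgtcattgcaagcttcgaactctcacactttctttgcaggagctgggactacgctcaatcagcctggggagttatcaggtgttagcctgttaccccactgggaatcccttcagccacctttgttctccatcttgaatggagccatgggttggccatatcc
Il12a, second start, chr3:68691174-68691423, plus strand: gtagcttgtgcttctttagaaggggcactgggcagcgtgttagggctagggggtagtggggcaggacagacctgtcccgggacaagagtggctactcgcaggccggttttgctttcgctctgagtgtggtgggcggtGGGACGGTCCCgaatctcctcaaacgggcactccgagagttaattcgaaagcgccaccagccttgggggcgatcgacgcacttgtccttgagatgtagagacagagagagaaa
Ebi3, chr17:55952373-55952622, plus strand: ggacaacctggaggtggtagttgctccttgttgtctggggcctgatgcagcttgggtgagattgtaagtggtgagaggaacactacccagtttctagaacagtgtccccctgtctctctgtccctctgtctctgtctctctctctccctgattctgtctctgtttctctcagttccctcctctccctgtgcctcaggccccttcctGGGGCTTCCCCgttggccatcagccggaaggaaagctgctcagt
Il18, chr9:50554450-50554699, plus strand: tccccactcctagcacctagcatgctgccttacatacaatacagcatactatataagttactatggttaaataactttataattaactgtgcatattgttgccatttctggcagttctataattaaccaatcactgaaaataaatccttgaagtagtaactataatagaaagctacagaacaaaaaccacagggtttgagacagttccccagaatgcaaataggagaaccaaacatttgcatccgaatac
Before the second Il12a start 2 overlapping matches, 1 on each strand, covered bases -113 to -103 from the start. Before Ebi3 a run of 11 bases, from -44 to -34, held 2 overlapping matches, each read on both strands. The first Il12a start and Il18 had no match in these windows. Il6, not printed, had matches at -85 to -76 and, as 2 overlapping matches, at -44 to -34, and Il12b had none. The motif is common, since 45.8% of 32851 promoter windows of this length held it. The STAT motif TTCNNNGAA, also on both strands, was in 7.02% of windows and before none of these starts. A match is a description of letters, not of binding, and which Il12a start the probe reports was not tested.

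Il10, the gene of an anti-inflammatory cytokine made by regulatory B cells and plasmablasts, lay at 3.25, 5.05 and 4.52 in control and at 7.96, 7.84 and 5.98 in TRAF3KO (probe 1260632). Control replicate 1 was under the 40th percentile, the other control arrays were just above it, and TRAF3KO replicate 3 was well below the other TRAF3KO arrays. The groups did not overlap, with a gap of 0.93. The means were 4.27 ± 0.93 and 7.26 ± 1.11 (SD, n = 3 each), and the difference was 2.99 ± 0.63 (SE; 95% interval 1.58 to 4.39). As intensities the values were 9.5, 33.1 and 23.0 in control and 248.7, 229.0 and 63.2 in TRAF3KO. The size depends on the treatment of dim values, and with 50 added to each intensity the log2 difference was 1.57. The call of Il10 was lost without control replicate 1 or 3 or TRAF3KO replicate 1 or 2, with differences from 2.47 to 3.63 over 6 leave-one-out fits. It was also lost without the filter, without a variance trend, without variance moderation and with inferred sex as a term (2.97).

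Il6 lay at 2.83, 5.59 and 4.31 in control and at 6.58, 5.44 and 5.33 in TRAF3KO (probe 5670731). Control replicate 1 was under the 40th percentile, and control replicate 2 was above TRAF3KO replicates 2 and 3, so the groups overlapped. The means were 4.24 ± 1.38 and 5.78 ± 0.70 (SD, n = 3 each), and the difference of 1.54 ± 0.77 (SE; 95% interval -0.17 to 3.25) was not called. With 50 added to each intensity it was 0.55. A difference of this size in Il6 was within the error of these dim values.

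Il18 lay at 9.41, 9.18 and 9.41 in control and at 8.14, 8.30 and 8.35 in TRAF3KO (probe 3420301). Every TRAF3KO array was below every control array, with a gap of 0.83 against ranges of 0.23 and 0.21 within the groups. The means were 9.33 ± 0.13 and 8.26 ± 0.11 (SD, n = 3 each). The difference was -1.07 ± 0.14 (SE; 95% interval -1.37 to -0.76), which is 2.09-fold lower in TRAF3KO, and it ran from -1.142 to -1.005 when any 1 array was left out. Il18 was the only kept member probe that was lower in TRAF3KO.

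**Figure D2:**
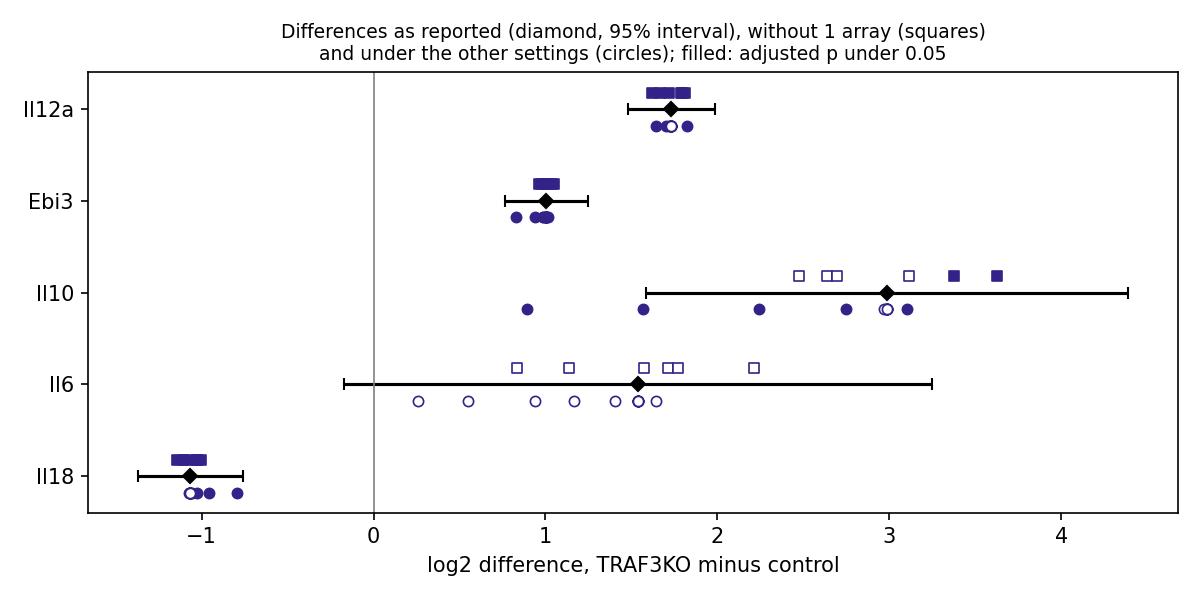
Log2 difference, TRAF3KO minus control (horizontal axis), of the 5 kept cytokine probes. Diamonds are the reported differences with 95% intervals, squares the 6 fits without 1 array and circles the other settings, filled where the adjusted p was under 0.05. Il12a, Ebi3 and Il18 stay in narrow ranges, whereas Il10 spreads from 0.89 to 3.63 and Il6 from 0.26 to 2.22.

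Myeloid cells also make IL-18, and some markers of such cells differed between the groups. Of 13 monocyte and macrophage markers with a probe 8 were tested, of which 0 were called higher and 2 lower, with a median difference of -1.67. By limma 4 of the 8 had an unadjusted p under 0.05. Lyz2, the lysozyme of myeloid cells, lay at 10.60, 9.44 and 11.42 in control and at 9.16, 8.95 and 8.52 in TRAF3KO (-1.61 ± 0.38, limma adjusted p = 0.041). C1qc, a complement chain of macrophages, lay at 8.66, 5.40 and 8.42 in control and at 5.07, 2.17 and 0 in TRAF3KO (-5.08 ± 1.24, limma adjusted p = 0.047). With 50 added to each intensity the C1qc difference was -2.05, since its TRAF3KO mean lay under the dim limit. The calls of Lyz2 and C1qc were lost in 5 and 4 of 6 leave-one-out fits. A second kept Lyz2 probe differed by -1.44 ± 0.42 and was not called (limma adjusted p = 0.0998). Adgre1 differed by 0.05 ± 0.17 (its other kept probes by 0.09 and 0.43) and Mrc1 by -0.01 ± 0.46, none of them called. The rest of the tested markers were C1qb (-4.16 ± 2.30), Cd14 (-3.90 ± 1.64), Vcam1 (-1.72 ± 0.68) and Marco (-0.37 ± 0.82), not called either. C1qb and Cd14 were at 0 on TRAF3KO replicates 2 and 3. The summed intensity of the 13 markers ran from 10.90 to 12.36 in control and from 10.38 to 11.06 in TRAF3KO (log2), so the groups overlapped, and Siglec1 and Ccr2 were at 0 on all arrays. Control replicate 2 had the lowest Il18 (9.18), Lyz2 and C1qc of the control arrays and C1qb at 0, and its Lyz2 was still above every TRAF3KO array. Among the TRAF3KO arrays the orders were opposite. Il18 was lowest on replicate 1 (8.14) and highest on replicate 3 (8.35), whereas Lyz2 and C1qc were highest on replicate 1 and lowest on replicate 3. The Il18 range on these arrays was only 0.21, and nothing is read from such orders in either group.

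Of 11 dendritic cell markers with a probe 6 passed the filter, with a median difference of 0.33. That median includes Zbtb46, which is set aside below, so nothing is read from it. Bst2 differed by 0.86 ± 0.37, Flt3 by 0.64 ± 0.83, Xcr1 by 0.02 ± 0.50 and Siglech by 0.01 ± 0.40, none of them called. Cst3, a cystatin that other cells make as well, fell from 14.56 to 13.94 (-0.62 ± 0.08, limma adjusted p = 0.0013). Its call was lost without the filter, without a variance trend and without variance moderation. Zbtb46, a dendritic cell transcription factor, had 0 on each control array against 6.35, 6.51 and 7.02 in TRAF3KO. It passed the filter only through the group where it is high, so no test of it is given. Itgax, which encodes CD11c, was at 0 on all arrays. The summed intensity of the dendritic cell list, 14.44 to 14.66 in control and 13.92 to 14.09 in TRAF3KO, did not overlap and was mostly Cst3. Among the other lists 0 of 7 T and NK cell markers and 0 of 5 neutrophil markers were called by limma, where 2 and 0 had an unadjusted p under 0.05, with Cd8a at 0 on all arrays. Of 7 erythroid markers Car2 alone was called, lower by limma (-1.03 ± 0.23), and the median difference was -0.87. Hba-a1, a haemoglobin chain, lay at 16.12 in control and 16.05 in TRAF3KO, as bright as Cd79a. Erythroid RNA was thus abundant in both groups. Alas2 (12.38 in control, -0.99 ± 0.48) and Slc4a1 (9.55 in control, -1.73 ± 0.88) were not called. Both were lowest on TRAF3KO replicate 1, at 9.89 and 5.24. The part of such cells in the levels of Il18 and the other cytokines was not tested beyond these values.

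**Figure D3:**
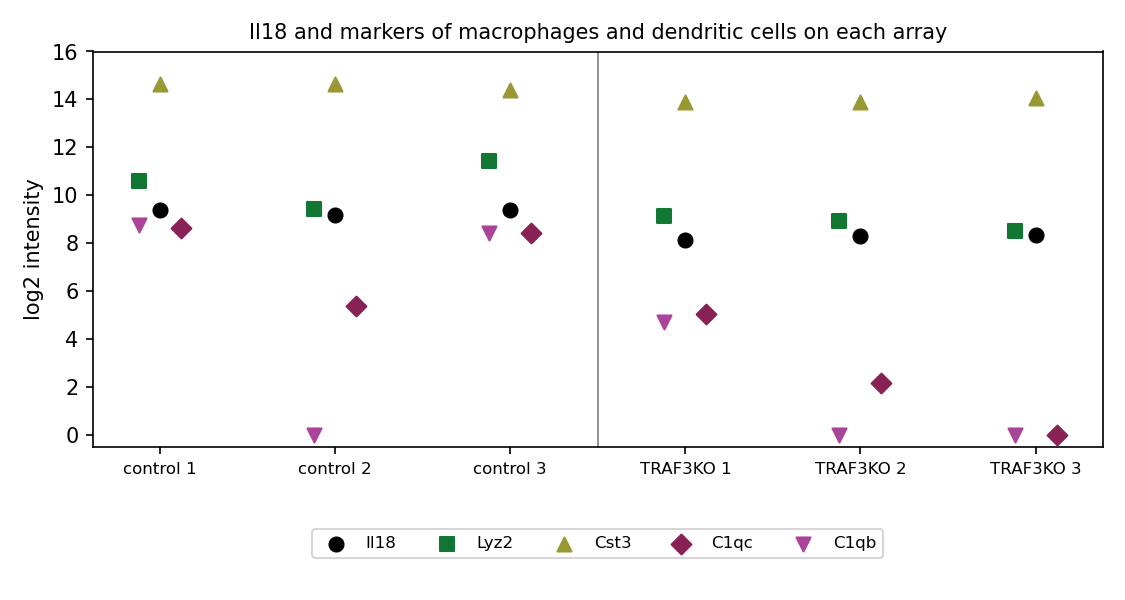
Log2 intensity (vertical axis) of Il18 and of the markers Lyz2, C1qc and C1qb (macrophages) and Cst3 on each of the 6 arrays (horizontal axis). Other markers, not all of them lower in TRAF3KO, are not drawn. Il18, Lyz2, C1qc and Cst3 each lie higher on all 3 control arrays than on any TRAF3KO array, and C1qb lies at 0 on control replicate 2 and TRAF3KO replicates 2 and 3.

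Receptors and partners of these cytokines were described from lists that hold no member, though these too were written with earlier results of these data known. Over all lists together 93 of 128 genes with a probe were tested, 14 higher and 4 lower in TRAF3KO by limma, with a median difference of 0.02. Over all tested genes 4.44% were called, 2.3% higher and 2.14% lower, and the median difference was 0.00420. Genes with several kept probes are given by the brightest. Without the filter on dim probes, or without a trend in the variance prior, 1 of the 18 calls remained, that of Sdc1.

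Of the 4 tested IL-12 family receptor chains 1 was higher and 0 lower (median 0.17). Il27ra, the specific chain of the IL-27 receptor, rose from 10.86, 10.92 and 11.18 in control to 11.36, 11.42 and 11.41 in TRAF3KO. The difference was 0.40 ± 0.10 (SE, limma adjusted p = 0.044), and neither 5 of 6 leave-one-out fits nor the fit with inferred sex as a term called it. A second Il27ra probe differed by 0.39 ± 0.11 and was not called (limma adjusted p = 0.095). Il12rb1, the chain shared by the IL-12 and IL-23 receptors, differed by -0.56 ± 0.45, and Il6st, the gp130 chain of the IL-6 and IL-27 receptors, by 0.85 ± 1.12, neither called. Il12rb2, the signalling chain for IL-12, was at 0 on 1 array of each group and differed by -0.06 ± 2.00. Il23r was under the dim limit on all arrays. Dim probes with such errors allow large differences in either direction, so nothing is shown for Il12rb2 or Il6st.

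Among IL-10 receptors and related cytokines, 0 of 5 tested genes were higher and 1 was lower (median -0.31). Il10ra, the ligand-binding chain of the IL-10 receptor, fell from 12.82, 12.43 and 12.77 to 12.29, 12.25 and 12.23. The difference was -0.42 ± 0.10 (SE, limma adjusted p = 0.041). Its call was lost in 5 of 6 leave-one-out fits as well as with a term for inferred sex. Il10rb, the shared second chain, differed by -0.01 ± 0.13. Il24, an IL-10 relative encoded near Il10, differed by 0.20 ± 0.26 and was not called.

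Of 8 tested genes of the IL-6 receptor and IL-6 relatives 0 were higher and 1 was lower (median -0.42). Clcf1, a cytokine of the IL-6 family that can stimulate B cells, lay at 10.71, 10.23 and 10.37 in control and at 9.71, 9.31 and 9.83 in TRAF3KO. It fell by 0.82 ± 0.16 (SE, limma adjusted p = 0.017), and the other kept probes, at -1.04 ± 0.15 and -0.68 ± 0.14, were called as well. The call of the brightest was lost in 3 of 6 leave-one-out fits. Il6ra, the IL-6 binding chain, differed by -0.27 ± 0.31 and was not called.

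Of 10 tested genes of IL-18 receptors, IL-18 processing and the IL-1 family 0 were called by limma, 1 with an unadjusted p under 0.05 (median -0.12). Casp1, whose protein activates IL-18, lay at 13.32 ± 0.11 in control and 13.54 ± 0.15 in TRAF3KO (0.22 ± 0.09, limma adjusted p = 0.24). Il18bp, the secreted inhibitor of IL-18, differed by -0.28 ± 0.23 and Il18rap, a receptor chain, by -0.95 ± 0.57, neither called. Aim2, a DNA sensor of inflammasomes, differed by -0.19 ± 0.16. Il18r1, the ligand-binding receptor chain, was at 0 on all arrays. The lower level of Il18 was thus not accompanied by a call in its processing or receptor genes.

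Of 16 tested JAK-STAT and adaptor genes downstream of these receptors 0 were called by limma, 3 with an unadjusted p under 0.05 (median 0.02). Stat3, which carries IL-6, IL-10 and IL-23 signals, differed by 0.07 ± 0.10. Stat4, which carries IL-12 signals, differed by 0.02 ± 0.10 at a level of 13.05 in control, and Ptpn6, a phosphatase that limits them, by 0.04 ± 0.08. Cish, a STAT-induced inhibitor of cytokine signalling, lay at 2.91, 4.42 and 3.05 in control and at 6.06, 5.61 and 6.95 in TRAF3KO, groups that did not overlap. Its difference of 2.75 ± 0.71 was not called (limma adjusted p = 0.061). Control replicates 1 and 3 lay under the dim limit, so the size of that difference rests on dim values. The kinase gene Jak2 differed by 0.30 ± 0.08 and was not called either (limma adjusted p = 0.067).

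Transcription factors known to act on cytokine genes had 4 of 20 tested members higher and 0 lower (median 0.17). Nfkb2, the p100 precursor of the non-canonical NF-kB subunit p52, rose from 7.51, 7.94 and 8.25 to 9.57, 9.58 and 9.76 (1.74 ± 0.18, limma adjusted p = 0.00049). Relb, the partner of p52, rose by 0.57 ± 0.09 (limma adjusted p = 0.0070). Hif1a, the hypoxia factor, rose by 0.47 ± 0.11 and Bhlhe40, a repressor of Il10 in T cells and macrophages, by 0.70 ± 0.17, each with a call lost in 5 of 6 leave-one-out fits and with inferred sex as a term. Maf and Ahr, known activators of Il10, were at 0 on all arrays.

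Of 13 tested other cytokines and chemokines 3 were higher and 1 lower (median -0.26). Lta, Ltb and Tnf, the genes of lymphotoxin and TNF, rose by 1.65 ± 0.20, 0.71 ± 0.11 and 0.84 ± 0.18, and Tgfb1, an immunosuppressive cytokine of B cells, fell by 0.44 ± 0.08 (limma adjusted p = 0.0094). The call of Tnf was lost in 4 of 6 leave-one-out fits and with inferred sex as a term, and that of Tgfb1 without control replicate 1. Il10 was thus higher and Tgfb1 lower on the same TRAF3KO arrays.

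Of 17 tested markers named for IL-10 making B cells 6 were higher and 1 lower (median 0.34). Cd80, a costimulatory ligand, rose by 1.55 ± 0.29, Cr2, which encodes CD21, by 0.92 ± 0.18 and Xbp1, a secretory factor, by 0.48 ± 0.08. The other 10 were not called, among them Cd1d1 (0.07 ± 0.07), Cd24a (-0.07 ± 0.43) and Havcr1 (0.33 ± 0.21). Cd5, at 0 on control replicate 2 and TRAF3KO replicate 3, differed by 0.17 ± 2.12, an error that allows large differences in either direction. The calls of Cd80 and Cr2 were lost in 2 and 4 of 6 leave-one-out fits, and that of Cr2 with inferred sex as a term. Sdc1, the plasma cell marker CD138, fell by 2.22 ± 0.21 (limma adjusted p = 0.00024). Over the alternatives the differences ran from 0.65 to 1.74 for Cd80 and from -3.49 to -1.16 for Sdc1, the smallest with 150 added to each intensity. Of 4 tested plasma cell markers 1 was higher (Xbp1) and 1 lower (Sdc1), and Prdm1, the plasma cell factor BLIMP1, was not tested, its brightest probe being above the dim limit on 1 array. The members that moved are thus not all of 1 kind, and the list names no cell type here.

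**Figure D4:**
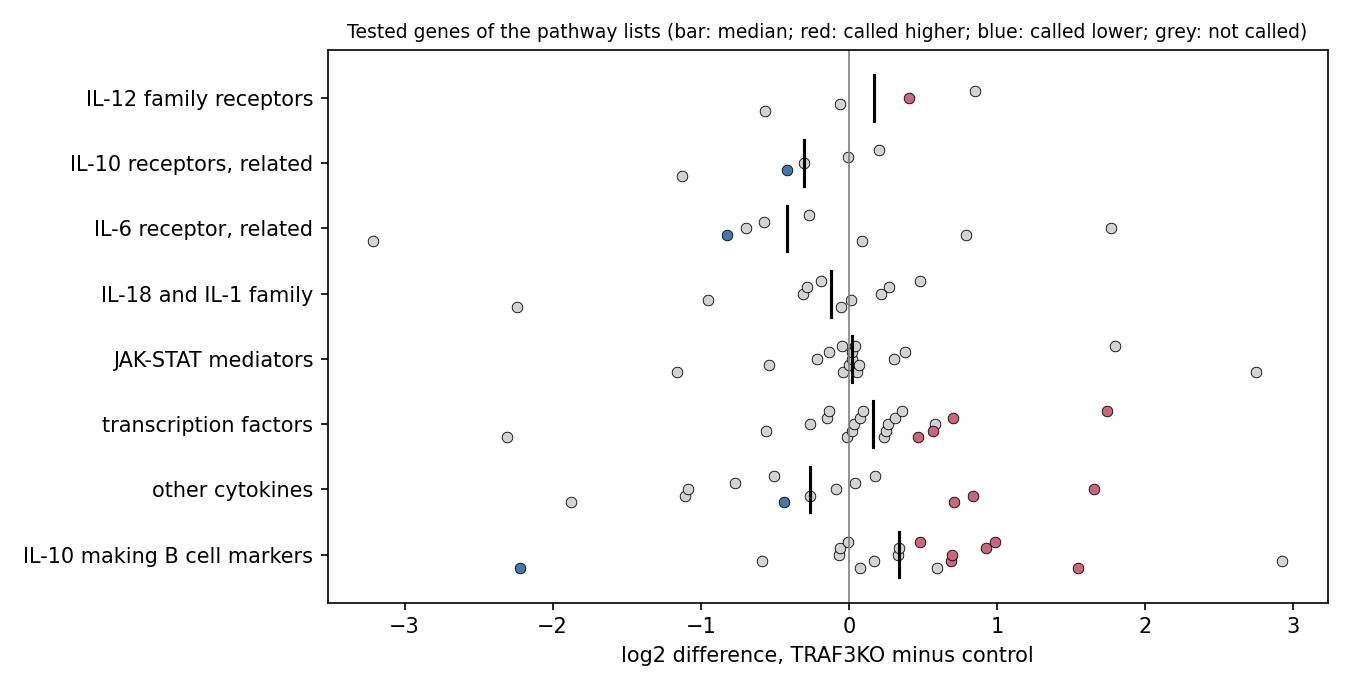
Log2 difference, TRAF3KO minus control (horizontal axis), of each tested gene in 8 lists of receptors, relatives, mediators and regulators of the cytokines (rows). Bars are list medians, red genes were called higher, blue lower and grey were not called. The JAK-STAT row has 0 of 16 called by limma and the transcription factor row 4 of 20 higher.

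The genes on either side of the members were compared as well, by a rule chosen after the values were seen: the 2 nearest tested genes on each side in RefSeq order on GRCm38.p6. Of 24 such neighbours 2 were called, 1 higher and 1 lower, where 4.44% of all tested genes were called. Beside Il12a on chromosome 3, Trim59 fell by 0.52 ± 0.11 (limma adjusted p = 0.028), whereas Ift80, Schip1 and Mfsd1 differed by 0.29 ± 0.44, 0.06 ± 0.46 and 0.03 ± 0.09. The neighbours of Ebi3 on chromosome 17, Yju2 and Fsd1 on one side, differed by 0.02 ± 0.14 and -0.01 ± 0.75. Beside Il18 on chromosome 9, Sdhd and Timm8b differed by 0.18 ± 0.24 and 0.11 ± 0.07, and beside Il10 on chromosome 1, Mapkapk2 by -0.03 ± 0.08. Tyms, listed beside Il6 on chromosome 5, rose by 0.90 ± 0.21. The calls of Trim59 and Tyms were lost in 4 and 5 of 6 leave-one-out fits, and both with inferred sex as a term.

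Genes whose pattern over the 6 arrays was most like that of a member were named by Pearson's r, as a description. For Il12a these were Tubg2, Zmiz2 and Rhbdf1 (r = 0.998, 0.997 and 0.996), and for Ebi3 they were Gspt1, Mgat3 and Jpt2 (r = 0.997, 0.997 and 0.996). For Il18 they were Nadsyn1, Pltp and Upb1 (r = 0.998, 0.998 and 0.995), and for Il10 they were Btf3, Mcm10 and Mars1 (r = 0.997, 0.996 and 0.995). Such values were frequent, since 139 genes reached r of at least 0.95 with Il12a, 145 with Ebi3, 138 with Il18 and 53 with Il10. The points share the split into groups, so r mostly restates that difference.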

How the data were processed

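The authors deposited log2 intensities of 25697 probes on 6 arrays. The submitters' processing notes name BeadStudio 3.2.3 and no role for it, and the background correction, normalisation and floor were not given in the sources used here. Values at a given rank differed between arrays by at most 0.138, and medians lay between 5.35 and 5.36. Arrays have no sequencing depth, so the number of arrays limits the precision. By the platform annotation 23141 probes had a single gene symbol and 0 had several. Samples were grouped by title.

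A linear model of the deposited log2 values with group alone was fitted in limma 3.58.1 (R 4.3.3; eBayes with a trend). It covered the 15657 probes that exceeded the array's 40th percentile on at least 3 arrays. Benjamini-Hochberg adjustment ran over these probes, and a gene was represented by its brightest kept probe. Members and lists were chosen with earlier results of these data known. The named genes were all member probes, up to 4 called genes of each pathway list by adjusted p (the 2 brightest where none was called by limma), and receptors, Il27, Il18bp, Casp1, Stat3 and Stat4 by name. Il24, Cish, Jak2, Maf, Ahr, Prdm1, Cd1d1, Cd5, Cd24a, Havcr1, the cell type markers not called and the neighbours fall outside this rule. They were named after their values were seen. Alternatives were quantile normalisation, other filters, variance models, array weights, offsets of 16, 50 and 150, raised low values, the replicate number or inferred sex as a term, the mean of a gene's probes and leaving out each array. The labels give no sex, so it was read from Xist and Eif2s3y.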

Additional observations from a re-analysis of the deposited data

How the results depend on the processing

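Of the 5 kept members Ebi3 was called in all 19 alternatives, Il12a and Il18 in 18 of 19 and Il10 in 10 of 18, with no change of direction, and Il6 was called in 0 of 18 by limma or the linear model. Il10 and Il6 did not pass the filter at the 60th percentile. Without variance moderation (a linear model per probe) 1 member probe, 37 genes and 1 pathway gene were called, against 4, 457 and 18. Without a trend 65 genes and 1 pathway gene were called, with no filter 114 and 1, and with inferred sex as a term 11 pathway genes. The 6 fits that left out 1 array called 3 to 4 member probes, 227 to 382 genes and 8 to 14 pathway genes. The counts fell by more than 1.5 times for genes without control replicate 1 (227) or 3 (287) or TRAF3KO replicate 1 (282) or 2 (278), and for pathway genes without control replicate 1 (9) or TRAF3KO replicates 1 (8), 2 (9) or 3 (11). The cause of these falls was not tested. Among the named genes, directions turned for 7, none of them called by limma: Il12rb2 (0.23 with array weights, 0.082 with inferred sex, -1.72 to 1.56 without 1 array), Ptpn6 (-0.0051 with the mean of probes, -0.037 to 0.14 without 1 array), and, without 1 array, Il6st (-0.032 to 1.75), Il10rb (-0.14 to 0.075), Stat3 (-0.0090 to 0.15), Stat4 (-0.053 to 0.13) and Aim2 (-0.33 to 0.032). With the replicate number as a block 4 member probes, 468 genes and 17 pathway genes were called, and Bhlhe40 was not. Deviations of same-numbered arrays correlated only weakly, at 0.0298 to 0.0440, and pairing was not assumed. Each array nevertheless correlated best with its own number in the other group, a hint from the data and not from the design. Dim values limit, among others, Il10, Il6, Il12rb2, Il6st, Il18rap, Cish, C1qb, C1qc, Flt3 and Zbtb46. Each lay under the 40th percentile (intensity 15.6 on average) on at least 1 array.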
